A study of Mus musculus with 12 samples.

Results

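Amino acid transporters are membrane proteins of the solute carrier (SLC) families that move amino acids into, out of and within cells. The description below covers 10 of them in cumulus cells, which enclose the oocyte in the mouse follicle: Slc7a1, Slc7a5, Slc7a6, Slc3a2, Slc1a4, Slc1a5, Slc38a1, Slc38a2, Slc6a9 and Slc38a10. They were chosen by name, and 9 of them were among the 13318 genes that had a value in at least 1 library. RNA was sequenced from cumulus cells of Kunming mice, which the labels also call granulosa cells of antral follicles, in 3 libraries of cells exposed for 18 hours to FSH plus FBS, called treated from here on, and 3 libraries labelled untreated. FSH is the follicle-stimulating hormone of the pituitary, FBS is fetal bovine serum, and the effects of the 2 agents cannot be told apart because they were given together. The labels give no age, no number of animals per library and no culture time for the untreated cells, so time in culture cannot be told apart from the agents, and the design text also speaks of complexes whose oocyte had been removed without saying whether these libraries came from them. The series has 6 small-RNA samples, which were not analysed here.

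Cells import amino acids to make protein, nucleotides, glutathione and hyaluronan precursors, and cumulus cells also pass amino acids to the oocyte through gap junctions. Transporters fall into a few working types: uniporters of cationic amino acids, obligate exchangers that trade one amino acid for another, and sodium-driven carriers that concentrate amino acids in the cell. Several exchangers are heterodimers, in which a light chain of the SLC7 family does the transport and the heavy chain Slc3a2 carries it to the plasma membrane. Many transporter genes are known targets of ATF4, the transcription factor of the amino acid response, which binds composite C/EBP-ATF response elements.

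Values are FPKM, fragments per kilobase of transcript scaled to the mapped total, so levels of different genes can be set side by side. First-exon and last-exon FPKM were each summed per gene, and the larger sum was taken as its value. The tables list no exon at 0, so a gene absent from a table is called unlisted and not 0, and sequencing depth is unknown. Libraries 1 and 2 of each group lay far closer to each other than to library 3: over 9022 genes that pair had a median absolute log2 ratio of 0.12 (treated) or 0.15 (untreated), and every other pair within a group one of 0.41 to 0.55. They were averaged and counted as 1 sample, which leaves n = 2 per group. The labels do not tie libraries to separate cultures or animals. A p-value here therefore reflects no more than the scatter among these samples, which may be technical. Across the genes tested, the log2 fold change had a median of 0.24, and scaling by median of ratios took it to 0.0037, so values near 0.24 moved with the bulk.

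The label was checked against markers. Inha, the inhibin alpha subunit of granulosa cells, stood at 276 to 282 FPKM in treated cells and at 350 to 502 FPKM in untreated cells, and Nr5a1 was listed in every library, whereas Foxl2 and Inhbb were unlisted in all 6. Of 15 granulosa and cumulus markers 10 were tested, and 1 was called lower and none higher by limma. At an unadjusted p under 0.05, 3 were lower (30%) and 2 higher (20%), against 4.31% and 12.2% of all genes tested. Limma called 0.687% of all genes lower and 1.68% higher. The 1 marker called was Wt1, at 0.00628 to 0.419 FPKM in treated cells against 3.73 to 9.03 FPKM in untreated cells (log2 fold change -2.56, limma adjusted p = 0.0291). Wt1 lay below 1 FPKM in every treated library. It reached the mean of 1 FPKM needed for the test only through its untreated values, so this call supports nothing. The gap junction gene Gja1 stood at 240.4 to 448 FPKM against 709 to 995 FPKM, Amh at 4.37 to 12.6 FPKM against 1.28 to 2.38 FPKM, and Nr5a2 at 47.6 to 61.4 FPKM against 22.1 to 30.2 FPKM, so the list did not move in 1 direction. With the replicate number as a block, Amh, Nr5a2 and Inhba were called higher (limma adjusted p = 0.00234, 0.0299 and 0.00402) and Fshr lower (0.0259). Inhba stood at 19.7 to 126 FPKM in treated cells against 8.09 to 32.2 FPKM in untreated cells. Fshr, the FSH receptor gene, stood at 1.42 to 2.09 FPKM against 3.08 to 7.92 FPKM. The block fit called 11.5% of all genes higher and 4.51% lower. Without the block none of these genes passed (limma adjusted p = 0.164 for Amh, 0.179 for Nr5a2, 0.38 for Inhba and 0.25 for Fshr). A list of 25 oocyte markers, of which 2, 3 and 10 were listed in treated libraries 1 to 3, reached a sum of 5.82, 4.81 and 32.8 FPKM there, and 27.3, 27.9 and 35.5 FPKM in untreated libraries 1 to 3, and Bmp15, Zp1 and Zp2 were unlisted throughout. Tle6 made up most of the sum in treated libraries 1 and 2. It stood at 5.56, 4.62 and 7.42 FPKM in treated cells and at 1.49, 2.17 and 4.24 FPKM in untreated cells. Its limma adjusted p was 0.354, and 0.0467 with the replicate number as a block. Gdf9, the other oocyte marker in all 6 libraries, stood at 0.260, 0.157 and 8.77 FPKM in treated cells and at 4.16, 5.10 and 6.06 FPKM in untreated cells. Theca and stroma markers, of which 8 of 11 were listed in any library, summed to 21.0 to 24.5 FPKM against 65.9 to 83.7 FPKM, and most of that sum was Acta2, the smooth muscle actin, at 13.6 to 17.5 FPKM against 58.3 to 67.7 FPKM (log2 fold change -1.93, limma adjusted p = 0.0296). Tagln, the other gene of that list in all 6 libraries, had a log2 fold change of 0.05 (limma adjusted p = 0.966). The leukocyte sum without Cd79a, left out after its values of 199 to 460 FPKM in 5 libraries were seen, was 2.96 to 7.19 FPKM against 9.11 to 12.6 FPKM. Endothelial markers summed to at most 3.37 FPKM and erythroid ones to at most 1.92 FPKM in any library. In such bulk samples, fewer cells of a type and less RNA per cell cannot be told apart.

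After FSH and FBS, 4 of the 9 listed transporters were called higher: Slc1a5, Slc6a9, Slc3a2 and Slc7a1. None was called lower, nor was any lower at an unadjusted p under 0.05, where 6 were higher. Over all genes tested, 12.2% were higher and 4.31% lower at that unadjusted p. With limma on log2(FPKM + 1), 2 samples per group and a Benjamini-Hochberg adjusted p of at most 0.05, 1.68% of the 9022 genes tested were called higher and 0.687% lower. The median log2 fold change of the 9 was 1.62, against 0.24 over all genes tested, and 8 of the 9 lay above that median. In 7 of the 9 all 3 treated libraries lay above all 3 untreated ones, which held for 29.4% of all genes tested. In none did all 3 lie below, against 9.54% of all genes. The 9 values summed to 516, 522 and 545 FPKM in treated cells and to 174, 175 and 128 FPKM in untreated cells. Slc7a5, the light chain of the large neutral amino acid exchanger LAT1, was unlisted in all 6 libraries and has no value here. All 9 listed genes passed the filter on low values, a mean of at least 1 FPKM and a listing in every library. Without untreated library 3 only Slc1a5 and Slc6a9 were called, 2 of the 9, and scaling by median of ratios also left those 2.

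**Figure D1:**
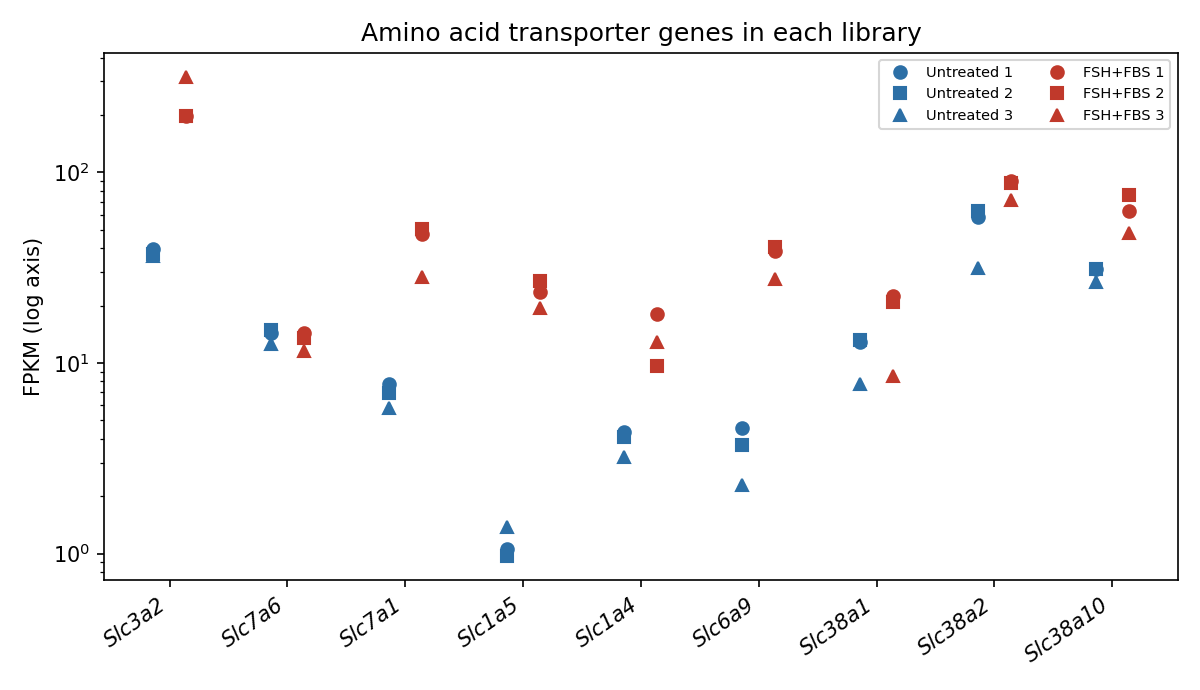
FPKM of the 9 listed transporter genes on a log axis, with untreated libraries in blue on the left and treated libraries in red on the right of each gene, and the library number given by the symbol. The groups are furthest apart for Slc1a5 and Slc6a9, and they overlap for Slc7a6 and Slc38a1.

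Slc3a2 encodes the heavy chain, also called CD98 or 4F2hc. It stood at 39.6, 37.4 and 36.6 FPKM in untreated libraries 1 to 3 and at 198, 197 and 316 FPKM in treated cells. All 3 treated libraries lay far above the untreated ones, and treated library 3 was the highest. The gene values of that library summed to 390969 FPKM, against 264904 to 274528 FPKM in the other 5, and scaling to equal sums gave Slc3a2 a log2 fold change of 2.41 (limma adjusted p = 0.0148). Slc3a2 rose from 37.5 ± 1.39 to 257 ± 84.1 FPKM (mean ± SD, n = 2), a log2 fold change of 2.70 (SE 0.40, limma adjusted p = 0.0153). It was the member with the highest level in every treated library. The call was lost without untreated library 3 (limma adjusted p = 0.145), by median of ratios (0.0579) and with first exon sums only (0.0734). All its signal in the tables ran to a single last exon, and a single first exon was listed (chr19:8722984-8723369, minus strand). That first exon carried 91.3, 125 and 298 FPKM in treated cells and 21.1, 16.3 and 24.1 FPKM in untreated cells, which is 46.0% to 94.2% and 43.5% to 65.8% of the gene's value. Positions are as the tables give them. The genome build was not given in the sources used here, and 36.65% of 12768 genes shared an exact outer end with their RefSeq record on GRCm38.p6.

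Slc7a6 is a light chain of Slc3a2, the y+LAT2 exchanger of cationic for neutral amino acids. It stood at 14.4, 14.9 and 12.5 FPKM in untreated cells and at 14.3, 13.5 and 11.6 FPKM in treated cells. The groups overlapped. The log2 fold change was -0.08 (SE 0.35, 95% interval -0.88 to 0.71, limma adjusted p = 0.934), so with n = 2 per group a change within that interval could not be told from none. The ratio of Slc3a2 to Slc7a6 levels was therefore 2.75, 2.50 and 2.93 in untreated libraries 1 to 3 and 13.8, 14.6 and 27.2 in treated cells. Slc7a6 drew on several first exons. The short one at chr8:106168875-106168954 on the plus strand held 85.4%, 89.4% and 35.6% of its value in treated cells and 70.2%, 69.1% and 30.1% in untreated cells. In both groups that share was lowest in library 3.

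Among the other light chains that pair with Slc3a2, Slc7a8 was the most abundant in every library. Slc7a8 is LAT2, an exchanger of neutral amino acids, and belongs to the wider list of plasma membrane transporters described further on. It stood at 19.95, 19.2 and 13.2 FPKM in untreated cells and at 122, 126 and 140 FPKM in treated cells, a rise (log2 fold change 2.96, SE 0.37, limma adjusted p = 0.00892) whose call was lost without untreated library 3 (limma adjusted p = 0.0791). Slc7a11, the cystine-glutamate exchanger xCT, was at 1.05 and 1.16 FPKM in untreated libraries 1 and 2 and unlisted in library 3, and at 11.6, 11.7 and 10.8 FPKM in treated cells. Slc7a7 stood at 1.67 to 2.40 FPKM in untreated cells and 1.05 to 2.67 FPKM in treated cells, and Slc7a10 was unlisted. The listed light chains summed to 37.1, 37.4 and 28.1 FPKM in untreated libraries and to 149, 154 and 166 FPKM in treated cells. Slc7a8 held 47.0% to 53.8% of that sum in untreated cells and 81.8% to 84.8% in treated cells. Heavy chain over summed light chains came to 1.07, 1.0004 and 1.30 in untreated libraries and to 1.33, 1.28 and 1.91 in treated cells. These ratios are a description with no test, and they leave out Slc7a5.

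**Figure D2:**
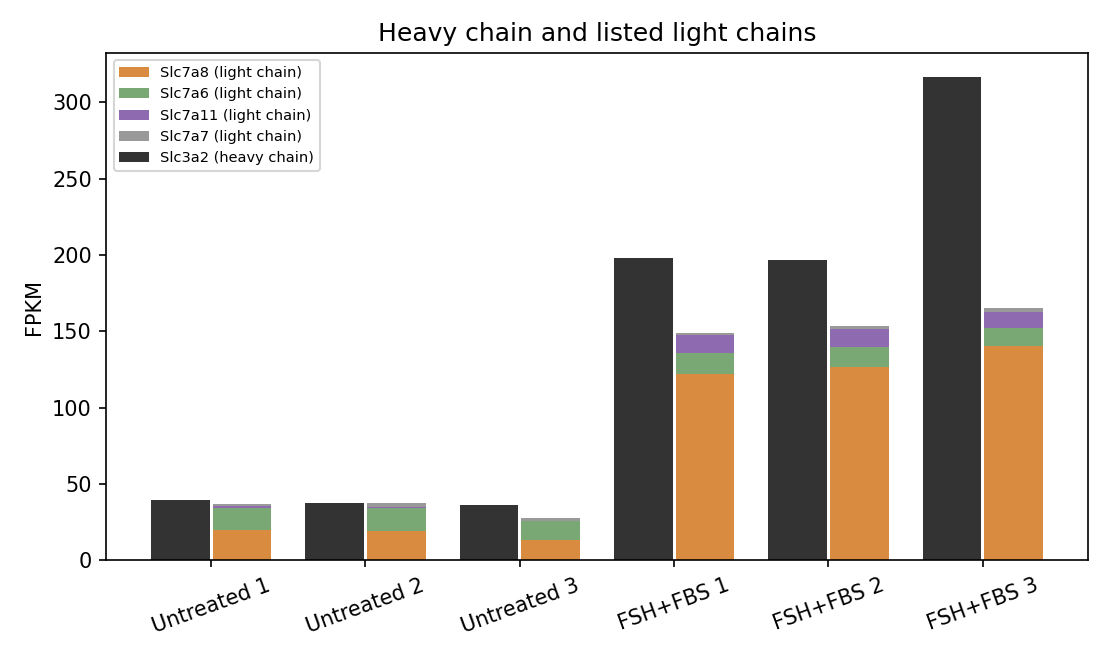
FPKM of the heavy chain Slc3a2 (dark bars) beside the stacked FPKM of the listed light chains Slc7a8, Slc7a6, Slc7a11 and Slc7a7 in each library. Both bars are taller in all treated libraries, and most of the added light-chain height is Slc7a8, while the Slc7a6 segment stays between 11.6 and 14.9 FPKM.

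Slc7a1 encodes CAT1, a uniporter that brings in arginine and lysine without a heavy chain. It stood at 7.71, 6.94 and 5.78 FPKM in untreated cells and at 47.7, 50.2 and 28.2 FPKM in treated cells. The treated libraries all lay above the untreated ones, with treated library 3 the lowest of the treated. Slc7a1 rose from 6.55 ± 1.09 to 38.6 ± 14.6 FPKM (mean ± SD, n = 2), a log2 fold change of 2.35 (SE 0.39, limma adjusted p = 0.0250). The call was lost without untreated library 3 (limma adjusted p = 0.130), under the 3 rescalings (0.0639 to 0.130) and with first exon sums only (0.128). A single first exon was listed (chr5:148399729-148399904, minus strand), and it carried nearly the last-exon sum in every library but untreated library 3, where it held 17.2% of the gene's value.

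Slc1a5 encodes ASCT2, a sodium-dependent exchanger whose substrates include glutamine. It stood at 1.06, 0.966 and 1.37 FPKM in untreated cells, the lowest member in each of those libraries, and at 23.7, 26.8 and 19.4 FPKM in treated cells. Even the lowest treated library was 14.1 times the highest untreated one. Slc1a5 rose from 1.19 ± 0.255 to 22.3 ± 4.15 FPKM (mean ± SD, n = 2), a log2 fold change of 3.41 (SE 0.37, limma adjusted p = 0.00624), the largest change of the 9 and rank 22 among the 9022 genes. It was called higher under all 16 alternatives that could be fitted, with limma adjusted p from 3.31e-06 to 0.0340. At a mean of at least 5 FPKM Slc1a5 entered only through its treated values, so that alternative adds no support. Between 13.8% and 15.8% of listed genes lay at or below Slc1a5 in untreated libraries, and 71.5% to 82.3% in treated cells. Most of its first-exon signal came from chr7:16781096-16782475 on the plus strand, at 19.9, 20.1 and 17.1 FPKM in treated cells and 0.846 FPKM in untreated library 1. Untreated library 2 listed a shorter form of that exon at 0.746 FPKM, and untreated library 3 did not list it and held 82.7% of its value in an exon further in. A first exon at chr7:16793177-16793880 was listed in all 6 libraries, at 2.18 to 6.67 FPKM in treated cells and 0.141 to 0.238 FPKM in untreated cells.

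Slc1a4 encodes ASCT1, the related exchanger of alanine, serine and cysteine. It stood at 4.32, 4.07 and 3.22 FPKM in untreated cells and at 18.2, 9.61 and 12.9 FPKM in treated cells. The groups did not overlap, but treated libraries 1 and 2, otherwise the closest pair, differed 1.89-fold for this gene. The log2 fold change of 1.62 (SE 0.36) missed the threshold (limma adjusted p = 0.0633). With the replicate number as a block it passed (limma adjusted p = 0.00104), in a fit that called 11.5% of all genes higher and 4.51% lower, and it also passed with last exon sums only (0.0334) and with the 6 libraries as separate replicates (0.00992), a fit that called 10.8% higher and 3.88% lower. Slc1a5 over Slc1a4 came to 0.245, 0.237 and 0.426 in untreated libraries and to 1.31, 2.79 and 1.51 in treated cells. Slc1a4 was thus the higher of the pair in each untreated library and Slc1a5 in each treated one.

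RefSeq promoter windows on GRCm38.p6, each running from 250 bases before to 50 after a start, were at hand for 7 of the 10 members, 11 windows in all. Slc1a5, Slc38a1 and Slc7a5 had none. The RefSeq start in the Slc3a2 window lies 9472 bases from the outer end of the first exon that the tables list. No start of Slc1a5 was therefore searched, nor the listed start of Slc3a2. The 11 windows were searched on both strands for the C/EBP-ATF response element TGATGNAA, the cAMP response element TGACGTCA and the E-box CACGTG. The first was in 1 of the 11 windows, that of Slc1a4, and in 3.97% of all 32851 windows. The others were in none of the 11 and in 1.79% and 7.15% of all windows. The Slc1a4 match begins 4 bases before the RefSeq start and reads TGATGCAA on the opposite strand. The stretch from 100 bases before to 4 after the start is shown for Slc1a4, which holds the match, and for Slc7a1 and Slc6a9, the called members whose RefSeq start lies inside the first exon that the tables list. Capitals mark the match.
Slc1a4 (chr11:20332710-20332813, minus strand): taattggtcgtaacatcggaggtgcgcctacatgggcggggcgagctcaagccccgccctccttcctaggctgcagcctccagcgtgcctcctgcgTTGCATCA
Slc7a1 (chr5:148399901-148400004, minus strand): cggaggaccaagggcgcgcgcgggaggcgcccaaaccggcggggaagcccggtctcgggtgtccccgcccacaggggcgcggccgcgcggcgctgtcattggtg
Slc6a9 (chr4:117835158-117835261, plus strand): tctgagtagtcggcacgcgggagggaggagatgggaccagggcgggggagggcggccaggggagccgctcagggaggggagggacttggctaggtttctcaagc
G and C made up 63.5%, 78.8% and 69.2% of these stretches. A match of letters is a description and not a binding site, and the absence of one says only that these letters are not in this window.

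Slc6a9 encodes GlyT1, a sodium- and chloride-driven carrier of glycine that is also known from oocytes. It stood at 4.57, 3.70 and 2.28 FPKM in untreated cells and at 38.7, 40.6 and 27.6 FPKM in treated cells. The groups lay well apart, and library 3 was the lowest in both. Slc6a9 rose from 3.21 ± 1.31 to 33.6 ± 8.51 FPKM (mean ± SD, n = 2), a log2 fold change of 3.06 (SE 0.40, limma adjusted p = 0.00998). Scaling to equal sums took the call away (limma adjusted p = 0.0580) and it held under the other 15 alternatives that could be fitted. At a mean of at least 5 FPKM Slc6a9 entered only through its treated values, so that alternative adds no support. The oocyte marker sums given above also differ between libraries, and their part in the Slc6a9 levels was not tested. The first exon at chr4:117835051-117835477 on the plus strand held at least 99.7% of the gene's first-exon sum in every library, and no last exon was listed save 1 of 0.126 FPKM in treated library 2. An internal exon (chr4:117857203-117857473) stood at 3.20 FPKM in untreated library 3, above the gene value of 2.28 FPKM. In treated library 3 it equalled the gene value, at 27.6 FPKM. The untreated value may thus be too low there and the fold change too high.

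The 3 members of the SLC38 family did not pass. Slc38a2 encodes SNAT2, the sodium-driven carrier of small neutral amino acids whose messenger RNA is known to respond to amino acid shortage. It stood at 58.1, 62.3 and 31.7 FPKM in untreated cells and at 89.8, 87.7 and 71.8 FPKM in treated cells. The groups did not overlap, by a margin of 1.15-fold. The log2 fold change was 0.85 (SE 0.42, 95% interval -0.11 to 1.82, limma adjusted p = 0.356). Slc38a2 was the highest member in untreated libraries 1 and 2 and the next after Slc3a2 in the other 4.

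Slc38a1 encodes SNAT1, a close relative with similar substrates. It stood at 12.9, 13.2 and 7.76 FPKM in untreated cells and at 22.5, 21.0 and 8.55 FPKM in treated cells. Treated library 3 lay within the untreated range. The log2 fold change was 0.41 (SE 0.49, 95% interval -0.72 to 1.54, limma adjusted p = 0.723). Slc38a2 over Slc38a1 was 4.50, 4.72 and 4.08 in untreated libraries and 3.98, 4.18 and 8.39 in treated cells. All 3 of its first exons were listed in every library. The middle one (chr15:96642128-96642343, minus strand) held 57.6%, 49.3% and 45.7% of the value in treated cells and 30.9%, 41.4% and 36.3% in untreated cells, and the outermost one held 17.0% to 27.1% and 20.9% to 43.9%.

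Slc38a10 is a less studied relative of the same family. It stood at 31.0, 31.2 and 26.7 FPKM in untreated cells and at 62.6, 76.2 and 48.1 FPKM in treated cells. The groups did not overlap. The log2 fold change was 0.98 (SE 0.36, 95% interval 0.14 to 1.82, limma adjusted p = 0.244), short of the threshold, which it passed with the 6 libraries as separate replicates (limma adjusted p = 0.0221). Its first exons split the signal between a full-length start and internal starts. The upstream exon (chr11:120150980-120151346, minus strand) carried 33.7, 39.3 and 40.0 FPKM in treated cells and 17.5, 23.7 and 5.91 FPKM in untreated cells. The internal exon at chr11:120110066-120110446 carried 27.1, 31.0 and 2.28 FPKM in treated cells and 11.1, 3.68 and 20.8 FPKM in untreated cells. The upstream exon was higher in every treated library than in any untreated one, whereas the internal exon overlapped between the groups. No test was made on exons.

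**Figure D3:**
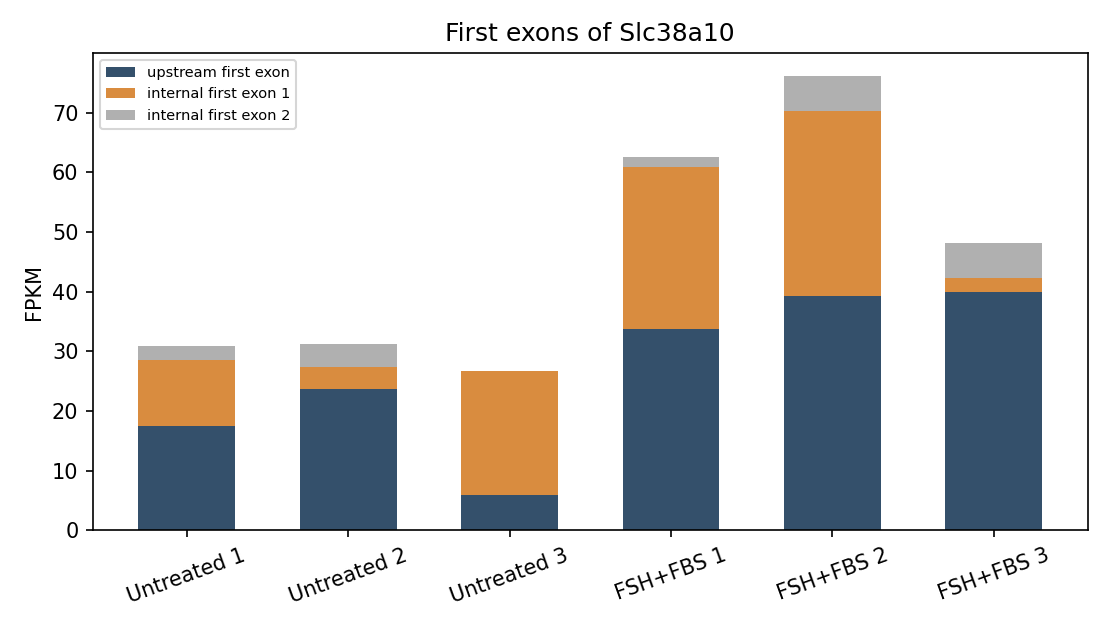
Stacked FPKM of the 3 first exons of Slc38a10 in each library: the upstream exon (dark), the internal exon of up to 31.0 FPKM (orange) and a further internal exon (grey). The upstream exon ranges from 33.7 to 40.0 FPKM in treated cells and from 5.91 to 23.7 FPKM in untreated cells, while the internal exons vary between libraries of the same group.

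**Figure D4:**
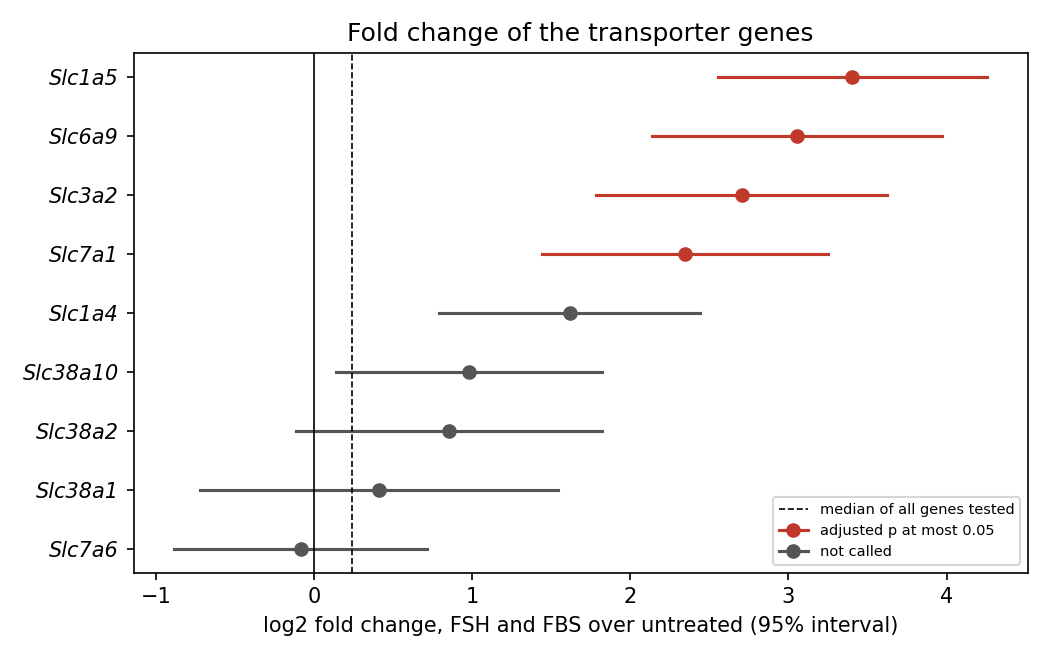
Log2 fold change of each listed transporter, FSH and FBS over untreated, with its 95% interval from limma at n = 2 per group. The 4 called genes (red) range from 2.35 to 3.41, and the dashed line at 0.24 is the median of all genes tested.

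By level, the order of the members differed between the groups. In untreated cells Slc38a2 and Slc3a2 overlapped at the top, followed by Slc38a10, then Slc7a6 and Slc38a1, which overlapped, then Slc7a1, then Slc6a9 and Slc1a4, which overlapped, and Slc1a5. After FSH and FBS Slc3a2 stood alone at the top. Below it the ranges of Slc38a2 and Slc38a10 overlapped, as did those of Slc38a10 and Slc7a1 and of Slc7a1 and Slc6a9, and Slc1a5, Slc38a1, Slc1a4 and Slc7a6 followed. Because libraries 1 and 2 count as 1 sample, the size of each difference was also read within each number. The mean of libraries 1 and 2 gave a ratio of treated to untreated levels of 25.0 for Slc1a5, 9.59 for Slc6a9, 6.68 for Slc7a1 and 5.13 for Slc3a2. Library 3 gave 14.1, 12.1, 4.89 and 8.66. Slc1a4 stood at 3.31 and 3.999, Slc38a10 at 2.23 and 1.80, Slc38a2 at 1.47 and 2.27, Slc38a1 at 1.67 and 1.10, and Slc7a6 at 0.949 and 0.930.

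A retained form was listed for 10 stretches of 5 members, and 3 of them are described here, chosen after their values were seen. A stretch of Slc38a2 that spans several introns (chr15:96695509-96698182) was listed in unspliced form at 12.6 and 9.26 FPKM in untreated libraries 1 and 2, which is 21.7% and 14.9% of both forms, and was unlisted in that form in untreated library 3 and in all treated libraries. An intron of Slc6a9 (chr4:117864642-117864754) was listed as retained in each untreated library, at 25.7%, 14.3% and 28.9% of both forms, and in no treated library. An intron of Slc7a6 (chr8:106192483-106193151) was retained at 23.1%, 21.9% and 11.8% in untreated libraries and at 14.6% in treated library 1 alone. Of the other stretches, 4 lie in Slc6a9 and were listed as retained in untreated library 2 only, 1 lies in Slc1a4 (untreated library 2 only), 1 in Slc1a5 (1 library of each group), and 1 in Slc7a6 was retained in every library, at 88.2% or more. An unlisted form counted as 0 in these shares, and whether depth or low levels kept forms out of a table was not tested.

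Of 38 other plasma membrane amino acid transporters 9 were tested, with a median log2 fold change of 0.05. Limma called 1 higher, Slc7a8, and none lower, against 1.68% and 0.687% of all genes tested. At an unadjusted p under 0.05, 2 were higher and 2 lower (22.2% each), against 12.2% and 4.31% of all genes tested. Slc16a10, which carries aromatic amino acids, stood at 24.2, 24.4 and 12.6 FPKM in untreated cells and at 4.53, 4.44 and 3.82 FPKM in treated cells (log2 fold change -1.85, limma adjusted p = 0.0665, and 0.000602 with the replicate block). Slc43a2, the neutral amino acid carrier LAT4, stood at 7.31, 8.74 and 3.12 FPKM and at 1.37, 1.58 and 0.113 FPKM (log2 fold change -1.88, limma adjusted p = 0.141, and 0.00112 with the block). Slc6a6, the taurine carrier, stood at 21.7, 23.4 and 18.6 FPKM and at 71.4, 72.1 and 36.7 FPKM (log2 fold change 1.29, limma adjusted p = 0.182, and 0.0163 with the block). Slc38a3, a carrier of cumulus cells known to depend on the oocyte, stood at 3.53, 5.35 and 1.64 FPKM and at 1.86, 1.75 and 0.699 FPKM (log2 fold change -0.80, limma adjusted p = 0.459). Slc43a1 was listed at 0.7999 and 0.476 FPKM in untreated libraries 1 and 3 only. None of 13 tested transporters of organelles was called by limma (median log2 fold change 0.39). At an unadjusted p under 0.05, 3 were higher (23.1%) and 0 lower, against 12.2% and 4.31% of all genes tested. The log2 fold change was 1.27 for Mfsd12, a lysosomal cysteine importer, and 1.16 for Sfxn1, the mitochondrial serine carrier (limma adjusted p = 0.139 and 0.141, and 0.0145 and 0.0142 with the block).

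Genes that sense or answer amino acid supply were read from 2 further lists. None of 33 tested genes of amino acid sensing by mTORC1 was called by limma (median log2 fold change 0.32), with 3 higher (9.09%) and 1 lower (3.03%) at an unadjusted p under 0.05, near the 12.2% and 4.31% of all genes tested. Sesn2, a leucine sensor and ATF4 target, stood at 7.92, 6.91 and 6.46 FPKM in untreated cells and at 24.5, 23.2 and 17.2 FPKM in treated cells (log2 fold change 1.43, limma adjusted p = 0.0951, and 0.00329 with the block). Its relative Sesn3 stood at 12.2, 10.02 and 3.50 FPKM and at 1.10, 1.89 and 1.06 FPKM (log2 fold change -1.70, limma adjusted p = 0.154, and 0.00323 with the block). Of 13 tested genes on the list for the amino acid response, limma called 1 higher and 1 lower (median log2 fold change 0.17). Over all genes tested 1.68% were called higher and 0.687% lower. At an unadjusted p under 0.05, 3 of the 13 were higher (23.1%) and 1 lower (7.69%), against 12.2% and 4.31% of all genes tested. Atf5, a transcription factor induced in that response, rose from 23.6, 24.2 and 29.0 FPKM to 181, 178 and 221 FPKM (log2 fold change 2.87, SE 0.36, limma adjusted p = 0.00921, and 0.0662 without untreated library 3). Txnip, which restrains glucose uptake, fell from 87.2, 101 and 61.6 FPKM to 21.9, 22.4 and 16.4 FPKM (log2 fold change -1.95, SE 0.38, limma adjusted p = 0.0423), a call lost under 8 of 17 alternatives. Atf4 itself stood at 130, 139 and 135 FPKM in untreated cells and at 374, 371 and 441 FPKM in treated cells (log2 fold change 1.58, limma adjusted p = 0.107, and 0.0201 with the block). Myc, at 42.4 to 49.99 FPKM untreated against 66.0 to 73.4 FPKM, did not pass (limma adjusted p = 0.485), nor did the ubiquitin ligase gene Nedd4l, at 0.880 to 1.66 FPKM against 0.157 to 1.88 FPKM (0.842).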

How the data were processed

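The deposited files, 1 per library, give transcript events (starts, ends, skipped exons, introns kept in) and an FPKM for each that the authors computed, per the file headers. HISAT2 2.0.1 is named in the submitters' processing notes. Assembler, filters and genome build are not given in the sources used here. FPKM hold no counts, so no counting interval is given.

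Per gene, first-exon and last-exon FPKM were summed on the strand with more signal and the larger sum was kept. Symbols from the supplied table matched 13281 of 13318 genes. Groups came from the treatment labels. Libraries 1 and 2 of a group were averaged. Values entered limma 3.58.1 (R 4.3.3) as log2(FPKM + 1), a scale that understates changes of low genes. The two-sided test used the trend of variance on level, and Benjamini-Hochberg adjustment covered the 9022 genes that every library lists and whose mean reaches 1 FPKM. Simulated data of that size, 20 runs with 200 changed genes, gave a recovery of 0.1% at 2-fold, 12.2% at 4-fold, 57.6% at 16-fold and 70.9% at 32-fold, with 1.68% false calls. Missing the threshold thus does not show that a gene kept its level.

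Same-numbered libraries deviated together (r = 0.32, 0.31 and 0.51 over genes for numbers 1, 2 and 3). The main fit has no term for the replicate number. A second fit with that number as a block, which pairs the samples, is given where it changes a call. Whether such a gene passes depends on that choice. The numbers come from the sample titles. Since libraries 1 and 2 are near-repeats, those correlations are not independent. The members, lists, motifs and tests were chosen with earlier results of these data known. Named genes are all members. From the 2 lists of other transporters and the lists of mTORC1 sensing and amino acid response, they are the called genes, up to 2 further genes by smallest adjusted p where fewer than 2 were called, and a fixed set of transporters and regulators. From marker lists, leading genes are named, and Wt1, Gja1, Amh, Nr5a2, Inhba, Fshr, Tagln, Tle6 and Gdf9 were added after their values were seen. Alternatives were a different pseudocount, filters, scalings, exon sums, unlisted genes as 0, all 6 libraries as replicates, the block and leaving out each library. Protein sequences were not used here.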

Additional observations from a re-analysis of the deposited data

How the results depend on the processing

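Slc1a5 was called higher under all 16 alternatives that could be fitted, Slc6a9 under 15 of 16, Slc3a2 under 14 of 17 and Slc7a1 under 12 of 17. Members called higher went from 4 to 2 when scaled to equal sums, by median of ratios or with first exon sums only, and ranged from 2 (without untreated library 3) to 4 when 1 library was left out. All-gene calls of 152 higher and 62 lower became 973 and 350 with 6 libraries as replicates, 1040 and 407 with the replicate block, 49 and 41 by median of ratios, and 42 and 21 with first exon sums only. Higher calls were 59 when scaled to equal sums and 94 by quantile normalization, and leaving out 1 library gave 42 to 254 higher and 33 to 131 lower. The share of calls that were higher was 71.0% in the main fit and 54.4% to 56.7% under the 3 rescalings. Other plasma membrane transporters, 1 higher and 0 lower, became 2 and 2 with 6 libraries or with the replicate block, 3 higher with unlisted genes as 0 (the added Slc7a3 and Slc7a11 pass the filter only through their treated values, so these calls support nothing), 0 higher with first exon sums only (Slc7a8 could not be fitted there), 1 lower at a mean of at least 5 FPKM, by quantile normalization or with last exon sums only, and 1 to 2 higher when 1 library was left out. Slc7a6 turned to a log2 fold change of 0.40 with last exon sums only, and lay between -0.19 and 0.037 when 1 library was left out; Slc7a7 lay between -0.27 and 0.11. Where an arm was left with 1 sample, it was assumed to vary like the other group. Slc1a5 and Slc6a9 had too few last exons for last exon sums. At a mean of at least 5 FPKM those genes entered only through treated values, and Slc16a10 only through untreated values. Their calls at that setting support nothing. The cause of each shift was not tested. Depth is unknown. Among the named genes that missed the threshold, the replicate block turned Slc1a4, Slc16a10, Slc43a2, Slc6a6, Atf4, Sesn2, Sesn3, Mfsd12, Sfxn1, Amh, Nr5a2, Inhba, Fshr and Tle6 into calls and changed no other call.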

Other observations

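Genes that 1 or more libraries did not list were left out of the main test, and the following were named after their values were seen. Slc7a3, the CAT3 carrier of cationic amino acids and a relative of Slc7a1, was listed at 1.09 and 0.856 FPKM in untreated libraries 1 and 2, was unlisted in untreated library 3, and stood at 33.4, 37.0 and 37.3 FPKM in treated cells. Slc36a2, a proton-driven carrier of small amino acids, stood at 5.57, 4.93 and 2.44 FPKM in treated cells and at 0.241 and 0.141 FPKM in untreated libraries 1 and 2. Trib3, an ATF4 target of the amino acid response, stood at 34.7, 35.3 and 21.3 FPKM in treated cells against 0.0114 and 0.385 FPKM in untreated libraries 1 and 2. Not every gene left out rose. Slc36a4 stood at 3.81, 4.34 and 2.71 FPKM in treated cells and at 3.75 and 4.01 FPKM in untreated libraries 1 and 2. Slc1a6 went the other way, at 0.802, 1.45 and 2.09 FPKM in untreated cells and 0.542 FPKM in treated library 1 alone. These are values with no test.

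In 5 libraries a transcript that the tables assign to Gm25894 begins on the opposite strand, 37 bases beyond the outer end of the Slc3a2 first exon. It stood at 23.7, 20.6 and 43.1 FPKM in treated libraries 1 to 3 and at 41.6 and 31.3 FPKM in untreated libraries 1 and 3, and these ranges overlap. Untreated library 2 lists a transcript there under another identifier, Gm25855, that begins 111 bases beyond and stood at 46.7 FPKM. Whether both are the same transcript was not tested.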
